A study of Mus musculus with 10 samples.

Results

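Of the 11094 RBPJ peaks in cultured brain pericytes, 1279 (11.5%) were narrow regions far from genes, and they form the class described here. A peak belonged to it when it was narrower than 1500 bp, when its centre lay more than 50 kb from any start site (TSS) of a protein-coding transcript, and when no TSS of another kind of gene lay within 1 kb. The members were selected on width and on distance, so width and distance themselves are given as a description, and tests below concern sequence content, which the selection did not use. The regions held the RBPJ recognition core TGGGAA in 39.9% of their central 200 bp windows, against 20.3% of windows 5 kb away, and the AP-1 motif in 23.5% against 6.33%. In addition, 43 of the 1279 (3.36%) carried RBPJ-type sites facing each other across a gap of exactly 14 bp. So did 52 of 2186 narrow peaks centred 5 to 50 kb from a TSS (2.38%).

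RBPJ is the factor that carries Notch signals to DNA. It binds corepressor complexes when Notch is not active, and when a Notch receptor is cleaved its intracellular domain and Mastermind join RBPJ on DNA and switch on target genes such as those of the Hes and Hey families. A pair of RBPJ sites facing each other lets neighbouring Notch complexes bind DNA together, and such paired sites were described at Hes gene promoters. Pericytes are the mural cells that wrap brain capillaries, and Notch signalling between endothelial cells and mural cells takes part in their differentiation. The study that made these data concludes that RBPJ acts independently of Notch in postnatal brain pericytes, and it proposes a repressor role.

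The series measured RBPJ, H3K4me1, H3K4me3 and histone H3 by chromatin immunoprecipitation and sequencing (ChIP-seq), beside input chromatin, in 10 samples that form 5 groups of 2. All samples are mouse RD1 cells, labelled as brain pericytes, without treatment, kept in pericyte medium on collagen I, and the antibody or its absence is what separates the groups. The methods of the study describe pericyte cultures raised by passage from brains of adult mice homozygous for a floxed Rbpj allele, and the labels give no genotype, strain or age. The 2 RBPJ samples gave the same peak list, byte for byte, so they were counted as 1 list. The remaining 8 samples were not analysed here. This list holds positions without a height, score or read count. No spread between replicates and no depth can be had from it, and the tests and 95% exact binomial intervals below cover the counting of peaks only. Peaks do not measure expression, so the cell type could not be checked against marker levels.

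Sequences of members are shown first, each read from the forward strand of GRCm38. The first set shows RBPJ-type sites that face each other, because the pairs gathered at a gap of 14 bp. Capitals mark TGNGAA on the left and TTCNCA, its reverse complement, on the right. The first 5 have a gap of 14 bp and the sixth has a gap of 17 bp. The Ror1 element lies in an intron of Ror1, and the others lie outside protein-coding genes.
near Col12a1, chr9:79549112-79549161: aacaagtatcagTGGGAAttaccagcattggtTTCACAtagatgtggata
near Diaph3, chr14:86435101-86435150: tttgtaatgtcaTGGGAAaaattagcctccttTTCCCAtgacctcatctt
near Alcam, chr16:52684432-52684481: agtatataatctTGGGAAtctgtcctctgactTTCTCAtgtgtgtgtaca
in Ror1, chr4:100188120-100188169: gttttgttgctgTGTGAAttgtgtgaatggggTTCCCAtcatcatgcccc
near Fat1, chr8:44348818-44348867: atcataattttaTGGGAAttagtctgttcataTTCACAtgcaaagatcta
near Scaf11, chr15:96543218-96543270: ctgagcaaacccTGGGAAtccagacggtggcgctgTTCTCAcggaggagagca

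The second set shows the central 200 bp of the members with most TGGGAA sites, because a cluster of cores is what marks them. There are 4 sites in each of these 4 windows, and capitals mark TGGGAA or its reverse complement TTCCCA. Irs2 encodes an insulin receptor substrate, and Hey2 encodes a repressor that is itself a Notch target. The window in Pkd1l1 is intronic and the other 3 lie outside protein-coding genes.
near Irs2, chr8:10646774-10646973: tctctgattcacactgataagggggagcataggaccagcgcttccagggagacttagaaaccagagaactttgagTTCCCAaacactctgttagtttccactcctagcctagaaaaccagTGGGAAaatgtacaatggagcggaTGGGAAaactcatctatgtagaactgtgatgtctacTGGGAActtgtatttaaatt
near Adam34, chr8:44094855-44095054: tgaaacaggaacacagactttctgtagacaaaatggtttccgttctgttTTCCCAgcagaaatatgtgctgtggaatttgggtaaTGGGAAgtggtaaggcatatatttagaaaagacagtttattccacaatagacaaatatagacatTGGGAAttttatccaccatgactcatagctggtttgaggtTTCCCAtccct
near Hey2, chr10:30980225-30980424: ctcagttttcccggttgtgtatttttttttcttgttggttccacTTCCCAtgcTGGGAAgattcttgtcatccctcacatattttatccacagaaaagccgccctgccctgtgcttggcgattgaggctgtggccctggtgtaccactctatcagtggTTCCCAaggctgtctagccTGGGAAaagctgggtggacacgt
in Pkd1l1, chr11:8829365-8829564: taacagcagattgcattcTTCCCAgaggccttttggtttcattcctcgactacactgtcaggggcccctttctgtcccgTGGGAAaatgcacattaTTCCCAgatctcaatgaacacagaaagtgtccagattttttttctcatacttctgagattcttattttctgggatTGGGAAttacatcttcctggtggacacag

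The third set shows 66 bp around a core in members near genes of the Notch pathway and near the genes with most members. Capitals mark TGGGAA on either strand or the AP-1 motif TGANTCA. The elements near Hes1 and Jag1 hold both.
upstream of Hes1, chr16:29915418-29915483: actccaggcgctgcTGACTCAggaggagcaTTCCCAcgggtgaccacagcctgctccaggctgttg
downstream of Jag1, in an intron of Slx4ip, chr2:137049542-137049607: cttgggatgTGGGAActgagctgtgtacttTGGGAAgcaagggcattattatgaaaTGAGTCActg
downstream of Myc, chr15:62283938-62284003: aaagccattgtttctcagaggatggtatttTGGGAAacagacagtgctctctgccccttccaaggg
upstream of Tle3, chr9:61289858-61289923: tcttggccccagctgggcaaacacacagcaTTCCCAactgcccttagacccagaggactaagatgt

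Most of the class lay between genes. The centre fell outside protein-coding genes in 897 members (70.1%), in an intron in 369 (28.9%) and in an exon in 13, and 155 lay within a lncRNA gene. The nearest protein-coding TSS was 50 to 100 kb away for 591 members, 100 to 200 kb for 368, 200 to 500 kb for 247, 500 to 1000 kb for 50 and over 1000 kb for 23, with a median of 107305 bp. The member lay downstream of that TSS in 720 cases and upstream in 559. Widths had a median of 398 bp (quartiles 276 and 606.5 bp, smallest 102 bp). Sequence more than 50 kb from a protein-coding TSS made up 53.8% of 264735 genomic windows placed every 10 kb, and it held 15.6% of all RBPJ peaks. The nearest other RBPJ peak of any class was at most 5 kb away for 88 members, at most 50 kb for 480 and at most 100 kb for 748, with a median of 73600 bp.

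Several steps led from the list to the members. Of 1733 peaks beyond 50 kb, 349 were 1500 bp or wider and another 105 had a noncoding TSS within 1 kb. At the width threshold, the peak at chr11:35280809-35282307 near Slit3, 1 bp narrower than the limit, was kept, and the peak at chr5:111880350-111881849, at the limit, was not. At the distance threshold, the peak at chr2:118976367-118976894 near Chst14 (50116 bp) was kept and that at chr13:62964759-62965114 (49998 bp) was not. For the noncoding TSS, a distance of 1022 bp at chr10:17034960-17036433 near Cited2 was inside and 1000 bp at chr12:73449195-73449442 near Tmem30b was outside.

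Of the 5 members farthest from any protein-coding TSS, the farthest was at chr1:102628188-102628325, 2140273 bp upstream of Cdh20, which encodes a cadherin. The next lay 2005908 bp upstream of Ptprd, a receptor phosphatase gene, at chr4:78600052-78600363. It held 3 TGGGAA sites in 312 bp, 2 of them in the central window. The member 1911478 bp downstream of Pcdh7, a protocadherin gene, held none, like the member near Cdh20. The members 1820947 bp upstream of G6pd2 and 1638934 bp downstream of Efna5, an ephrin gene, held 1 each.

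The first question was whether regions this far from genes hold the sequence that RBPJ recognises. TGGGAA, searched on both strands, was present in the central 200 bp of 510 members, or 39.9% (95% interval 37.2 to 42.6%). Across all RBPJ peaks the share was 25.8%, and across the genomic windows placed every 10 kb it was 16.7%. The window 5 kb to the lower-coordinate side of the same peaks held the core in 20.3% and the window to the upper side in 19.6%. In 406 members only the peak window held it and in 156 only the lower window (two-sided exact McNemar test, p = 1.17e-26). The longer form GTGGGAA, which contains TGGGAA, was present in 15.3% of members, 5.79% of lower windows and 3.56% of genomic windows.

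Far distal and nearer distal peaks held the core at close shares. Narrow peaks centred 5 to 50 kb from a TSS, a class of 2186, held it in 42.3%, which is 2.39 percentage points above the far distal share (p = 0.174, two-sided Fisher's exact test). The interval of the far minus nearer difference ran from -5.78 to 0.995 points. In the 4259 narrow peaks within 1 kb of a protein-coding TSS the share was 16.6%, and the difference of 23.2 points (95% interval 20.3 to 26.1) passed the threshold of 0.05 (p = 2.59e-63, same exact test). Promoter windows also differed in composition, with a median GC content of 67.5% against 48.5% in the far distal windows, 50.5% in the nearer distal ones and 43% in the lower flanks. The part of base composition in these differences was tested only against the flanks. Among the 488 members whose window and flank differed by at most 5 points of GC content, TGGGAA was present in 39.1% of peak and 22.5% of flank windows (adjusted p = 4.41e-07, exact McNemar test, adjusted over the motif panel).

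The core gathered at the centre of far distal peaks. Within 50 bp of the centre there were 14.9 TGGGAA sites per 100 peaks in each 50 bp bin, and at 300 to 500 bp from it there were 5.77, a ratio of 2.58. AP-1 sites were more strongly centred, at 8.17 against 1.99 per 100 peaks (ratio 4.10). The corresponding ratios were 1.54 for the TEAD motif and 1.48 for the RUNX motif. The nearer distal peaks showed the same kind of rise, with ratios of 2.88 for TGGGAA, 3.58 for AP-1, 2.04 for TEAD and 1.45 for RUNX. In narrow promoter peaks TGGGAA stood at 4.90 in the centre and 4.83 outside.

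**Figure D1:**
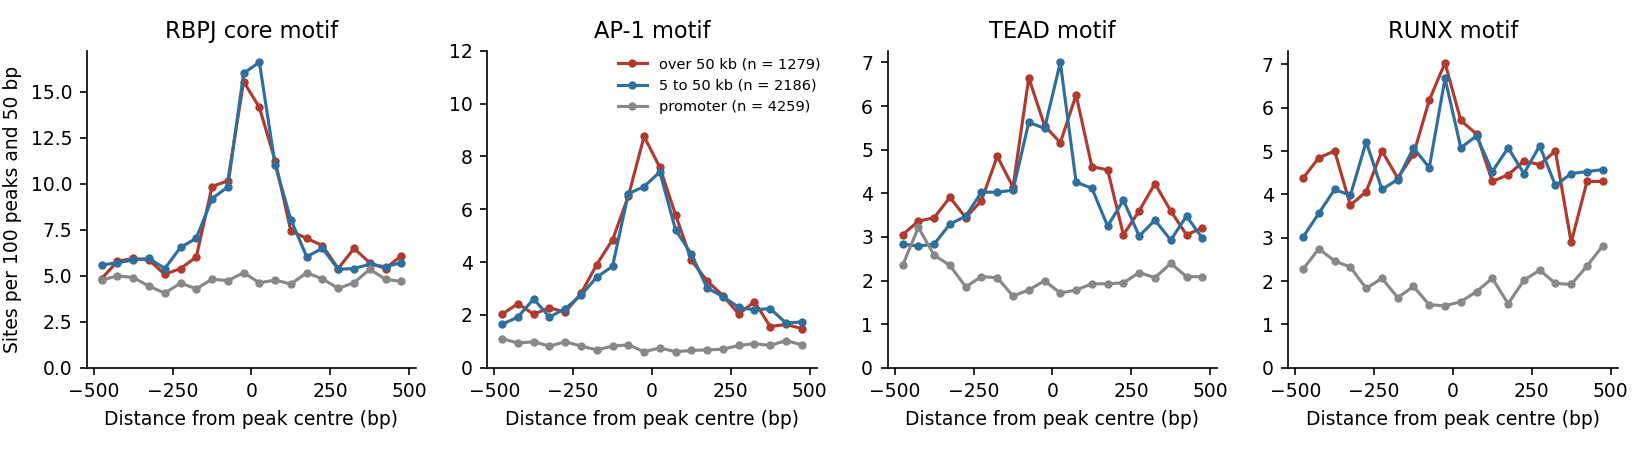
Sites per 100 peaks in 50 bp bins (y axis) against the distance of the bin from the peak centre in bp (x axis) for the RBPJ core TGGGAA and the AP-1, TEAD and RUNX motifs; lines are the 1279 far distal narrow peaks, the 2186 narrow peaks at 5 to 50 kb and the 4259 narrow promoter peaks. In far distal peaks the RBPJ core rises from 5.77 in the outer bins to 14.9 at the centre and AP-1 from 1.99 to 8.17, while the promoter line for the core stays near 4.83.

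Narrower members held the core more often in their central 200 bp. That window covers a smaller part of a wider peak, and shares over whole peaks were not compared by width. TGGGAA was present in 56% of the 100 members under 200 bp, 49.5% of 287 at 200 to under 300 bp, 42.4% of 439 at 300 to under 500 bp, 30.3% of 307 at 500 to under 1000 bp and 22.6% of 146 at 1000 bp or more. Taken as 2 groups, the 826 members under 500 bp held it in 46.5% and the 453 wider ones in 27.8%, 18.7 points less (p = 4.52e-11 by a two-sided Fisher's exact test). AP-1 sites followed the same order, from 30% in the narrowest to 8.22% in the widest group. From the narrowest to the widest group, the core share also went from 60.8% to 23.7% in the nearer distal peaks and from 29.2% to 9.87% in the narrow promoter peaks. The authors merged neighbouring peaks, and the place of the summit within a merged region is not in the list. Over whole peaks rather than central windows, 464 of the 1279 members held no TGGGAA.

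By distance and by gene structure no difference passed the test. The core was present in 39.6% of members at 50 to 100 kb and in 40.1% of those farther away (difference -0.52 points, interval -5.90 to 4.86, p = 0.864, two-sided Fisher's exact test). Even over 1000 kb from a TSS, 9 of 23 members held it (39.1%, interval 19.7 to 61.5%). Intronic members held it in 39.3% and members outside genes in 40.1% (difference -0.84 points, interval -6.76 to 5.09, p = 0.801, same exact test).

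**Figure D2:**
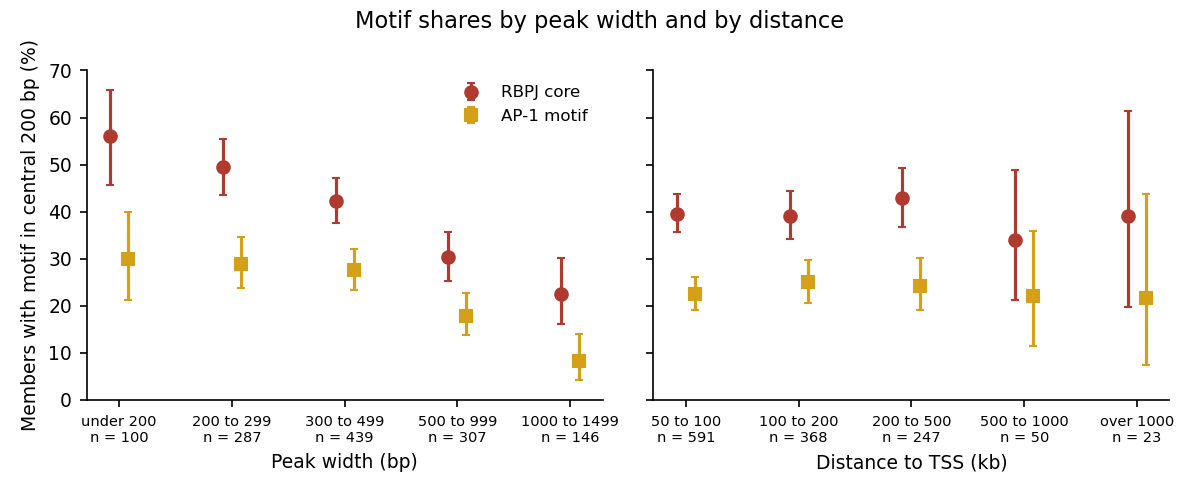
Share of far distal members with the RBPJ core (circles) or the AP-1 motif (squares) in their central 200 bp, in percent, by peak width in bp (left) and by distance to the nearest protein-coding TSS in kb (right); bars are 95% exact binomial intervals and n is the number of members. The core falls from 56% to 22.6% with width and stays between 34% and 42.9% over the distance groups.

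Most members had a single core or none. The central window held 0 sites in 769 members, 1 in 396, 2 in 96, 3 in 14 and 4 in 4. The bases beside the core also differed from background. Directly before TGGGAA a G stood at 208 of 646 sites in peaks (32.2%) and at 123 of 548 sites in the flanks (22.4%), 9.75 points more (p = 0.000212, two-sided Fisher's exact test on sites), although sites within a peak share their source. At the next position out, C was at 34.2% of peak sites against 20.8% in flanks and A at 12.8% against 28.3%.

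Far distal windows held fewer repeats than their flanks. At least 50% of the central window was marked as repeat in 86 members (6.72%) and in 286 of their lower flanks (22.4%), which differed with p = 6.21e-32 (two-sided exact McNemar test). Of the other classes, 104 of 2186 nearer distal windows (4.76%) and 31 of 4259 promoter windows (0.728%) were of this kind, and the difference from the far distal windows was not tested. Repeat-rich members held the core in 19.8% and the others in 41.3% (two-sided Fisher's exact test, p = 5.42e-05). Reads matching many positions were dropped when the list was made, and their part in the repeat content was not tested.

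Paired sites were the next question, since Notch complexes on facing RBPJ sites can bind together. Binding of Notch complexes was not measured, and the spacing of known paired sites was not compared with the gaps found here. Facing pairs of TGNGAA and TTCNCA with a gap of 5 to 30 bp were counted over whole peaks and over flank windows of the same width. Far distal members held 128 such pairs, of which 43, in 43 different members (3.36%), had a gap of 14 bp. Any other gap had 0 to 11 pairs, with a median of 3. Gaps of 15, 16 and 17 bp had 11, 3 and 2 pairs. At 14 bp there were 2 pairs in the lower flanks and 0 in the upper flanks. In 19 of the 43 pairs both sites were the full TGGGAA core, while the flanks held 0 of that kind at 14 bp.

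The 43 regions with a 14 bp pair were spread over 17 chromosomes. Their median width was 227 bp (quartiles 199 and 391.5 bp) and 38 of them were under 500 bp. The middle of the pair lay within 25 bp of the peak centre in 25 cases and within 50 bp in 31. They lay at 50964 to 2005908 bp from the nearest protein-coding TSS, and the member far upstream of Ptprd was among them. Among the nearer distal peaks 52 of 2186 (2.38%) had such a pair, a difference of 0.98 points (interval -0.19 to 2.16, two-sided Fisher's exact test, p = 0.105), and among narrow promoter peaks 10 of 4259 (0.235%, p = 4.02e-19, same exact test). These 2 tests were added after the counts had been seen.

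**Figure D3:**
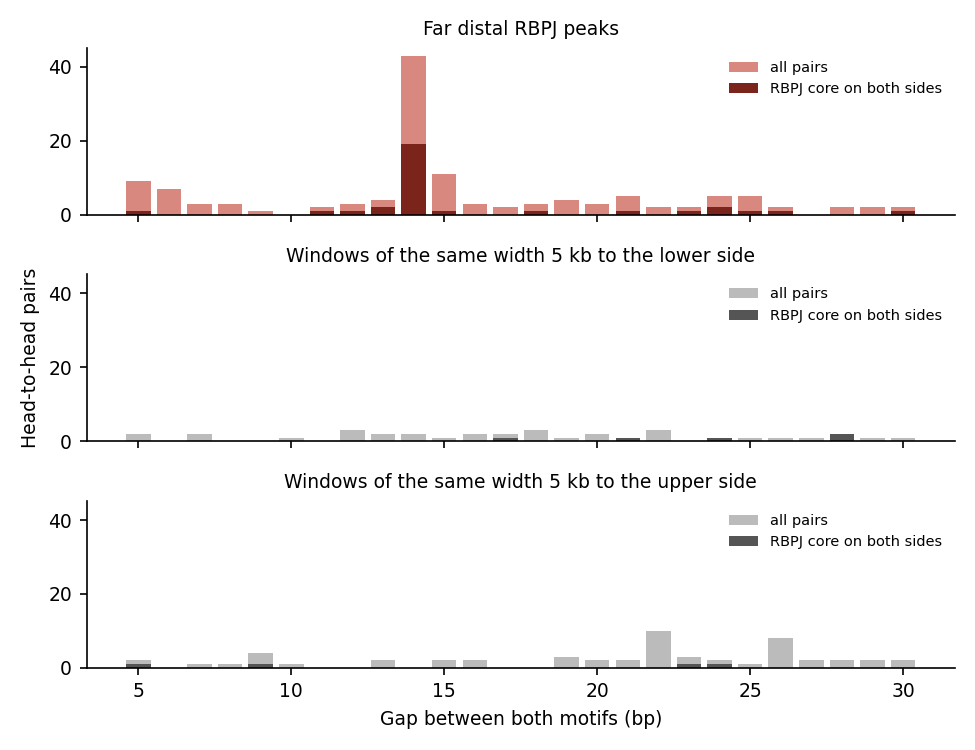
Number of facing TGNGAA and TTCNCA pairs (y axis) by the gap between them in bp (x axis) in the 1279 far distal peaks and in windows of the same width 5 kb to either side; the dark part of each bar counts pairs in which both sites are the TGGGAA core. The bar at 14 bp reaches 43 pairs in the peaks, 19 of them dark, against 2 and 0 pairs in the flanks.

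Far distal members also held binding sequences of other transcription factors beyond their flanks. A panel of 26 motifs was compared with the lower flank by two-sided exact McNemar tests adjusted over the panel by the Benjamini-Hochberg method, and 8 motifs were higher and 3 lower. TGANTCA, the site of the AP-1 factors of the Fos and Jun families, had the smallest p. It was present in 301 members (23.5%, interval 21.2 to 26%) and in 6.33% of flanks (exact adjusted p = 2.06e-34), while all RBPJ peaks held it in 10.4% and genomic windows in 6.01%. The nearer distal peaks held it in 21.2%, 2.35 points less than the far distal ones (interval -0.53 to 5.24 points, exact adjusted p = 0.463 over the panel, Fisher's test). GGAATG, the site of the TEAD factors of the Hippo pathway, was present in 19.8% against 11.4% (exact adjusted p = 4.67e-08, genomic windows 10.8%). It can share bases with TGGGAA.

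Of the other motifs, TGTGGT, bound by Runx factors, was present in 20.6% against 14.1% (exact adjusted p = 7.13e-05, genomic windows 13.7%). GGGCGG, bound by Klf and Sp factors, was present in 5.79% against 2.11% (exact adjusted p = 7.61e-06, genomic windows 1.93%). Its share was higher in all RBPJ peaks (30.3%) and in narrow promoter peaks (57.8%). The motif of the insulator protein CTCF was found in 25 members (1.95%) against 0.156% of flanks (exact adjusted p = 2.45e-05, genomic windows 0.0918%), and TGACAG, bound by Meis and Tgif factors, in 16.3% against 12.5% (adjusted p = 0.0195). The homeodomain sequence TAATTA (2.81% against 5.55%, exact adjusted p = 0.00183), ATTGTT of the Sox factors (9.93% against 13.2%, adjusted p = 0.0324) and CA repeats (0.782% against 1.95%, adjusted p = 0.0394) were lower. In the same order, all RBPJ peaks held these 3 in 2.18%, 5.77% and 0.838%, and genomic windows in 7.22%, 14.6% and 2.31%. Where window and flank differed by at most 5 points of GC content, only both forms of the RBPJ core, AP-1 and TEAD passed, and the other 7 calls were lost. KLF/SP was then at 3.07% against 2.87% (exact adjusted p = 1), RUNX at 20.3% against 16.6% (adjusted p = 0.602), and CTCF at 2.05% against 0.205% (adjusted p = 0.0609). TGACAG was at 16.8% against 14.5%, TAATTA at 3.07% against 4.10%, ATTGTT at 9.43% against 12.1% and CA repeats at 1.43% against 2.05%. That subset holds fewer windows, and the KLF/SP difference shrank to a ratio of 1.07 while the CTCF ratio was 10. Where both windows were less than 50% repeat, RUNX (19.3% against 15.6%, exact adjusted p = 0.112), TGACAG (16.7% against 13.5%, adjusted p = 0.120) and CA repeats (0.320% against 1.28%, adjusted p = 0.102) did not pass. Against the upper flank ATTGTT did not pass (9.93% against 12.2%, exact adjusted p = 0.133). In the central 100 bp TGACAG (7.27% against 6.57%, exact adjusted p = 0.748) and CA repeats (0.469% against 0.938%, adjusted p = 0.442) did not. Both forms of the RBPJ core, AP-1 and TEAD passed under each of these 4 alternatives.

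**Figure D4:**
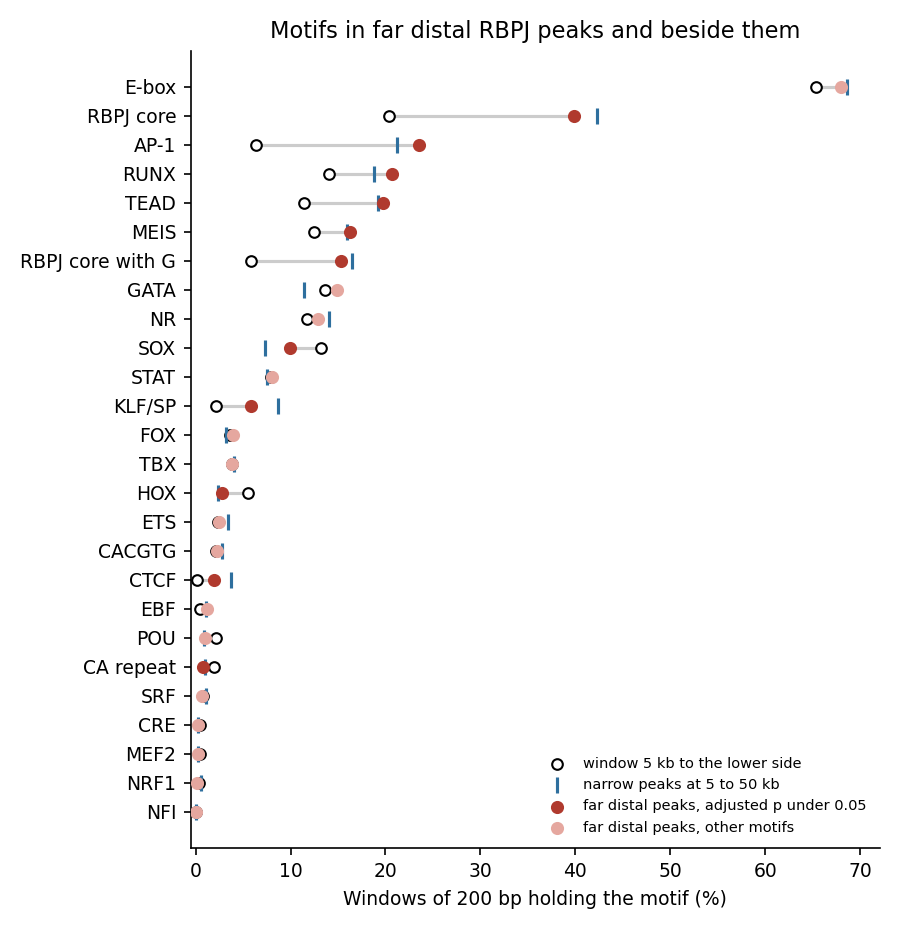
Share of 200 bp windows that hold each of 26 motifs, in percent, in far distal RBPJ peaks (filled points, dark where the adjusted p of the exact McNemar test against the flank is under 0.05), in windows 5 kb to their lower side (open circles) and in narrow RBPJ peaks at 5 to 50 kb (bars). The longest lines between peak and flank are those of the RBPJ core, at 39.9% against 20.3%, and of AP-1, at 23.5% against 6.33%.

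The RBPJ core and AP-1 were both present in 135 members (10.6%), the core alone in 375, AP-1 alone in 166 and neither in 603 (47.1%). In the lower flanks both were present in 8 windows (0.625%) and neither in 946. Members with the core held AP-1 in 26.5% and members without it in 21.6% (unadjusted p = 0.0508, adjusted p = 0.350, two-sided Fisher's exact test). Among the 24 motifs tested in this way, TEAD (24.5% with the core, 16.6% without, exact adjusted p = 0.00879) and the STAT motif, TTC and GAA 3 bases apart (11.6% against 5.72%, adjusted p = 0.00527) passed. Once sites sharing a base with TGGGAA were left out, 0 of 24 passed and 1 had an unadjusted p under 0.05, with TEAD at 18% against 16.6% and STAT at 9.02% against 5.72%.

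Against the nearer distal peaks 1 motif was higher and 2 were lower in two-sided Fisher's exact tests over the 26 motifs. AGATAA, bound by GATA factors, was present in 14.9% of far distal and 11.4% of nearer distal windows, GGGCGG in 5.79% and 8.65%, and the CTCF motif in 1.95% and 3.75% (exact adjusted p = 0.0263 for each). The far distal share of AGATAA was near that of genomic windows beyond 50 kb (14.5%). It did not pass against the lower flanks (13.6%, exact McNemar test, adjusted p = 0.615). All RBPJ peaks held AGATAA in 7.37%. In the central 100 bp 0 motifs passed, also at an unadjusted p under 0.05. GC content moved with these motifs, as 38.9% of far distal windows and 52.8% of nearer distal windows were over 50% GC (two-sided Fisher's exact test, p = 2.00e-15), and its part in them was not tested.

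Genes were linked to members through regulatory domains, and distances to a named gene below run to the 5′ end of that gene, which can differ from its nearest transcript start. The domains reach from 5 kb upstream to 1 kb downstream of a gene's TSS and from there by up to 1 Mb to the next gene's domain. A member within a domain shows position only, and not that the gene responds to it. Of 21938 protein-coding genes, 1511 (6.89%) had at least 1 member in their domain. Of these, 1035 had 1 member, 448 had 2 to 4 and 28 had 5 or more. The share follows the length of the domain, since 34.5% of genes with a domain over 500 kb had a member and 3.43% of the others. The median domain was 564 kb for genes with a member and 89.5 kb for all genes.

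The gene with most members was Myc, the proto-oncogene that drives growth and proliferation and is a Notch target in some cells. Its domain had the full length of 2000 kb, which gave 5.5 members per Mb, against 37.8 for Tmem189 and 28.6 for Ptpn1. The 11 members of Myc lay at 176603 to 908818 bp from the TSS, with 7 upstream and 4 downstream. Of the 11, 9 held TGGGAA within the peak, with 15 sites in all, and 5 held it in the central window. A1bg, the next gene on that side, shared the upstream run with Myc and had 7 members.

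Tmem189 and Ptpn1, which encodes a tyrosine phosphatase, had the same 9 members between them on chromosome 2. These lay within 102 kb, at chr2:167765211-167867168, and no other window of 500 kb held as many members, and no protein-coding TSS lay among them. Their widths were 194 to 1238 bp, 5 held the core in the central window, and 7 held it within the peak. Cebpb, the gene of a leucine zipper transcription factor that lies next to Tmem189, has its TSS 76.9 kb from the nearest and 178 kb from the farthest of these members. It was named after its position had been seen.

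Irf2bp2, a transcriptional corepressor gene on chromosome 8, had 8 members at 53167 to 258756 bp, within 321 kb at chr8:126532424-126853307, and 4 of these held the core in the central window. Tomm20, a gene of the mitochondrial import receptor, shared 6 of them. Tle3 encodes a Groucho-type corepressor that Hes proteins recruit, and it had 8 members at 82489 to 436188 bp. Of these, 3 held the core and 4 held AP-1 in the central window. A run of 7 members on both sides of the Tle3 TSS lay at chr9:61289767-61698263. Rplp1, the neighbouring ribosomal protein gene, had 7 members at 105988 to 434732 bp, and these were also members of Tle3. Rnd3 had 7 members at 92935 to 499332 bp, 4 of them with the core in the central window. Mmadhc and Tns3 had 6 members each, as many as Tomm20 and Hes1. A window on chromosome 15, at chr15:96524266-96937047, held as many members as that around Tle3, and 6 of its 7 held the core in the central window.

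Among 36 genes of the Notch pathway, 6 (16.7%) had a member in their domain, beside the 6.89% of all genes, and the median domain of the list was 123 kb. Of the 5 with a domain over 500 kb, 3 had a member, beside 34.5% of all genes with such a domain. Hes1, the best known Notch target, had 6 members. They lay at 250433, 182082, 169753, 153642 and 148897 bp upstream and at 123839 bp downstream of its TSS. The members at 169753 and 148897 bp held the core in the central window, the latter with AP-1 beside it in the sequence printed above, and over whole peaks 5 of 6 held it, with 10 sites in all. Jag1, which encodes a Notch ligand, had 4 members. The nearest, at 67066 bp downstream within Slx4ip, held 3 sites in 341 bp. The other 3 lay at 319692, 640250 and 727475 bp upstream with 2, 1 and 1 sites.

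Hey1, a Notch target gene and repressor, had 3 members at 50437, 100176 and 199155 bp upstream, which held 1, 2 and 0 sites in the peak and none in the central window. Hey2 had a single member 137524 bp upstream, and this was the window with 4 cores printed above. Adam10, the protease that cleaves Notch receptors, had a member with 3 sites at 155825 bp, in an intron of Lipc. Mib1, a ubiquitin ligase that activates Notch ligands, had a member with 1 site at 160526 bp.

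The lists that follow are set against the 6.89% of all genes and the 34.5% of genes with a domain over 500 kb. Of 37 genes of TGF-beta and BMP signalling, 14 (37.8%) had a member, with a median domain of 322 kb and a member in 9 of the 12 genes whose domain exceeded 500 kb. The nearest were Bmp6 (3 members from 65788 bp), Tgfb3 (1 at 78422 bp), the inhibitor Smad6 (3 from 80258 bp), Inhba of the activins (4 from 81715 bp) and the signal transducer Smad3 (3 from 96876 bp). The 3 members of Smad6 and Smad3 are the same regions, since these genes are neighbours. The corepressor gene Tgif1 had 4 members from 111689 bp, of which 3 held the core and 3 held AP-1 in the central window. The BMP antagonist Nog and the ligand Bmp2 had 1 member each, at 115176 and 119498 bp.

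Of 40 genes of the extracellular matrix, 18 (45%) had a member, with a median domain of 301 kb and a member in 8 of the 13 genes with a domain over 500 kb. Col5a1 had 3 members from 53097 bp, and none held the core within the peak. The member 105153 bp from Col6a3 held 5 sites in 1459 bp. The others nearest to a member were Ccn1 (53276 bp), the basement membrane genes Col4a1 (74605 bp) and Nid1 (91803 bp), Col8a1 (82856 bp), the fibronectin gene Fn1 (102436 bp) and Timp3 (116605 bp).

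Of 24 pericyte genes, with a median domain of 173 kb, 5 (20.8%) had a member, namely Ebf1 (2, from 68637 bp), Nr2f2 (2, from 99013 bp), the endothelial ligand Angpt1 (156667 bp), Tbx18 (266923 bp) and Foxc1 (416185 bp), and all 5 were among the 6 pericyte genes with a domain over 500 kb. The Ebf1 members held 6 core sites in all and those near Nr2f2 none. Of 20 contractile and filament genes, with a median domain of 120 kb, 2 (10%) had one, namely the vimentin gene Vim at 129040 bp and Mrtfb, a coactivator of serum response factor, with 5 members from 181115 bp. The 5 members of Mrtfb were also the 5 members of Parn, which lay from 56307 bp of Parn.

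Of 60 mesenchymal transcription factors 25 (41.7%) had a member, 23 of them among the 41 with a domain over 500 kb. Sox9 (2 members), Twist2 (1), the Hedgehog effector Gli2 (4) and Runx1 (4) had their nearest member at 68620, 71162, 76603 and 78117 bp. Sox4, Tcf7l2, Foxf1 and Creb5 followed at 82846, 98413, 112335 and 129943 bp. Of 32 genes of guidance cues and their receptors 15 (46.9%) had a member, 12 of them among the 24 with a domain over 500 kb, and the median domain was 1238 kb. Epha4, Plxna2, Epha5 and Slit1 had theirs at 53355, 57699, 69773 and 72938 bp, and the 2 members of Epha5 held 4 core sites. Unc5b, Nrp1, Sema3d and Efna5 followed at 102959, 106948, 120145 and 124149 bp. Among 21 immediate early genes 5 (23.8%) had a member, 4 of them among the 5 with a domain over 500 kb. The 5 were Myc, Klf10 (3, from 90938 bp), Jun (109268 bp), Fosl2 (253274 bp) and Maf (436560 bp).

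Chromosomes 4, 7 and X held few members. On 17 autosomes there were 6.61 to 16.5 members per 10 Mb of sequence beyond 50 kb of a protein-coding TSS, with a median of 11.3. Chromosome 2 had the highest value, with 138 members. Chromosome 4 had 1.79 (14 members), chromosome 7 had 3.40 (19 members), chromosome X had 1.96 (19 members) and chromosome Y had none. These chromosomes were low in all narrow RBPJ peaks (118, 129 and 98). The members made up 11.9%, 14.7% and 19.4% of these, within the 6.76 to 23.6% of the 17 other autosomes. Copy number in RD1 cells was not measured in the files used here, and its part in these values was not tested.

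**Figure D5:**
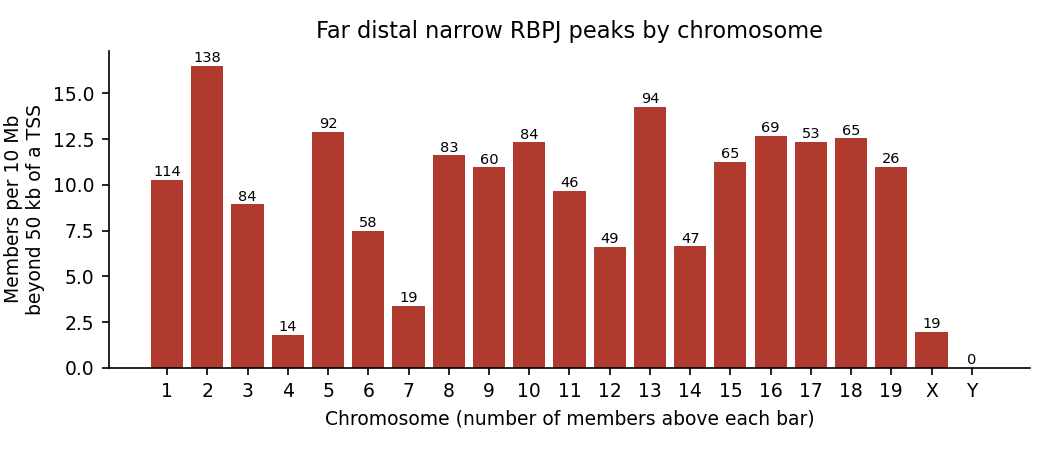
Far distal narrow RBPJ peaks per 10 Mb of sequence beyond 50 kb of a protein-coding TSS (y axis) on each mouse chromosome (x axis), with the number of members above each bar. Chromosomes 4, 7 and X stand at 1.79, 3.40 and 1.96, under the 6.61 to 16.5 of the other 17 autosomes.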

How the data were processed

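RBPJ peaks of RD1 cells were analysed, with groups and replicate numbers from sample titles. As its methods state, reads were aligned by the authors to GRCm38 using bowtie and deduplicated, and they called peaks with MACS2 and PeakRanger, merged close peaks, kept regions found repeatedly over both callers and both replicates, and left out blacklisted regions. Deposited values were chromosome, start and end positions in bp, with no score. After merging, the centre of a wide peak need not be its summit, and reads with too many matches were dropped.

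Positions were read as counted from 1 and compared with GRCm38.p6 and GENCODE M21 (0 peaks past a chromosome end). Distances for the selection and the distance groups ran from the peak centre to 54327 starts of protein-coding transcripts, and those to genes in the domain results to 1 start per gene, its 5′ end. Motifs were searched on both strands of the central 200 bp, and 3 lower and 3 upper flanks held undetermined bases. Differences of shares have 95% Wald intervals. The motif search and the exact McNemar test were tested on simulated data with planted cores. Depth was not available, so precision covers counting only.

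The members, motifs and gene lists were chosen with earlier results of these data known. Regions named were the 5 farthest members, the 5 with most cores (of which 1 is not reported here), those nearest each threshold, 6 with facing pairs nearest the peak centre, and the 3 windows of 500 kb with most members, ties by chromosome order. Genes named were the 10 with most members (ties by shorter domain) and at most 8 of each list by distance. Mmadhc, Tns3 and a window on chromosome 15 were named after their values were seen, as ties. Parn was also named after its values were seen, for the members it shares with Mrtfb. The printed regions near Hes1, Jag1, Myc and Tle3 were picked once their values had been seen. Alternatives covered distance, width, windows, flanks, masking, GC content, chromosomes and domains. Software was scipy 1.17.1, numpy 2.4.6, pandas 2.3.3 and matplotlib 3.10.9 under Python 3.11.15.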

Additional observations from a re-analysis of the deposited data

How the results depend on the processing

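Of 48 alternatives, 41 left single comparisons on the same side of the threshold with the same direction and counts within 1.5 times, and 7 moved a count by more. A like count need not be the same motifs. Of the 11 motifs that passed against the lower flank, 10 did so against the upper flank with 2 others, 9 in the central 100 bp with 1 other, 8 in windows with few repeats and 4 at like GC content. A distance limit of 100 kb left 688 members, and extending domains by 100 kb left 528 genes with a member. Against the flanks, 4 motifs passed where GC content differed by at most 5 points. Against the nearer distal peaks, 0 passed in the central 100 bp. With and without the core, 5 motifs passed over whole peaks and 0 passed when sites shared no base with TGGGAA. Requiring both full cores left 19 pairs at 14 bp. The cause of these moves was not tested. The comparisons by GC content, by sites sharing no base and by full cores were chosen after seeing the data. Leaving out either RBPJ file removes a copy of 1 consensus list and tests nothing. It gave 1279 to 1279 members and differences of 19.5 to 19.5, -2.39 to -2.39 and 23.2 to 23.2 points against flanks, nearer distal and promoter peaks. No paired analysis was possible because replicates 1 and 2 hold the same list and the other groups were not analysed here. Without heights or summits, a strong and a weak site cannot be told apart.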

Other observations

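All 2080 hexamers, with reverse complements merged, were ranked by the share of far distal central windows that held them minus the share of both flanks. TGGGAA ranked 1, at 39.9% against 20%. GACTCA (25.9% against 9.42%) and GAGTCA (26% against 11%), which lie within the AP-1 site, ranked 2 and 3, and AGCCTG (26% against 14.9%) ranked 4. The lowest differences were those of AATAAA (13.1% against 25.6%) and TAAAAA (13.0% against 25.1%).

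Within the 43 pairs at 14 bp, the base that follows each core in the gap was A at 40.7% and G at 10.5% of 86 sites, and the next base was T at 40.7%. Over all TGGGAA sites of the central windows, the following base was A at 38.1% and G at 22.6%, and the next was T at 22.6%. At flank sites these shares were 31.6%, 28.6% and 26.1%. The 86 sites include TGAGAA and TGTGAA cores, and the differences were not tested.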
